A study of Mus musculus with 4 samples.

Results

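The genes described here set, copy and remove DNA methylation in mouse embryonic fibroblasts undergoing reprogramming with or without activated AKT. They are the dioxygenases Tet1, Tet2 and Tet3, the methyltransferase genes Dnmt1, Dnmt3a, Dnmt3b and Dnmt3l, the maintenance cofactor Uhrf1, and the thymine glycosylases Tdg and Mbd4. All non-control probes carrying one of these 10 gene names were taken, which gave 21 of the 55681 probes on the array. They are 10 of 34821 gene names. Tet1, Tet2, Tet3, Dnmt3b and Tdg had 3 probes each, Uhrf1 had 2, and the other 4 genes had 1 each.

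Methyl groups on the cytosine of CpG dinucleotides are set by DNMT3A and DNMT3B, with DNMT3L as a cofactor that has no catalytic activity of its own. They are copied to the new strand after replication by DNMT1, which UHRF1 recruits to hemimethylated sites. TET enzymes oxidize 5-methylcytosine to 5-hydroxymethylcytosine and further forms with alpha-ketoglutarate as a cofactor, and TDG and MBD4 excise oxidized or deaminated bases so that base excision repair can restore cytosine. In somatic cell reprogramming, removal of methylation from regulatory regions of pluripotency genes is a known step, and loss of TET activity is known to impair it.

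RNA was profiled at 8 days postinfection (dpi) on 4 single-channel arrays, with 1 array per group. Every group started from OE-MEFs, which are fibroblasts of male E13.5 embryos that carry an EGFP transgene driven by Oct4 regulatory sequences, and the methods describe them as mixed from several embryos. All 4 groups were infected with retroviruses for Oct4, Sox2 and Klf4 (OSK). In the OSKA groups AKT-MER, a myristoylated AKT fused to a modified estrogen receptor, was added, and its ligand 4-hydroxytamoxifen (4OHT) or vehicle was given from day 3 in both OSK and OSKA cells. The groups were therefore OSK with vehicle, OSK + 4OHT, OSKA with vehicle and OSKA + 4OHT. The title and the study design place AKT activation in the OSKA + 4OHT sample, whereas its free-text description calls AKT-MER inactive there. The title was used.

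With 1 array in each group there was no replicate error and no test could be made. Each comparison below is a difference between single arrays. The error given with a difference comes from the scanner software and covers the array only. A level is the log2 intensity of a probe, counted from the 75th percentile of its array, and a difference of at least 1.5-fold (0.58 on the log2 scale) was counted as a change. Levels are therefore relative to the bulk of each array. Scaled to the spike-in controls instead, 78.6% of all probes measured on every array were highest in OSK with vehicle, against 31.8% here, and the main orders that turn with this scaling are given below. All 21 probes were measured, that is well above background, on all 4 arrays. The lowest measured level of any probe lay between −4.90 and −4.54 on these arrays. The median SD among the repeats of probes spotted 10 times was 0.058 to 0.067, and 0.128 to 0.139 where the level was under −1. The single Akt1 probe differed by −0.10 without and 0.07 with 4OHT between OSKA and OSK cells, and whether it lies in the AKT sequence of the vector is not given in the sources used here.

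Markers of the cultures bear on how far these bulk RNA levels can be read. All 8 fibroblast markers were measured on every array, and of 8 pluripotency markers Nanog, Dppa5a, Utf1, Tdgf1 and Sall4 were measured on every array and Zfp42, Esrrb and Dppa4 on none. The median difference of those 5 was −0.24 with 4OHT in OSKA cells, with Tdgf1 at −0.73, Nanog at −0.19 (0.11 by another probe), Sall4 at −0.24, Utf1 at −0.27 and Dppa5a at 0.53, against a median of −0.04 in OSK cells. The epithelial markers had a median of 0.47 with 4OHT in OSKA cells, with Dsp at 1.35, Krt18 at 0.86, Krt8 at 0.56, Cldn4 at 0.38, Cdh1 at −0.14 and Epcam at −0.45, and a median of −0.39 in OSK cells over 5, without Cldn4, which was not measured in OSK with vehicle. These 2 epithelial medians had the signs of the brightest Tet1 and Tet2 probes. For AKT-MER with 4OHT the epithelial median was 0.00, against 0.83 and 0.67 for these Tet1 and Tet2 probes. For AKT-MER without 4OHT it was −1.05, against −0.26 and 0.06. The part of such cells in the members' values was not tested. All 5 macrophage and leukocyte markers were also measured on every array. Their summed level was 6.83 in OSK with vehicle. It was 7.41 in OSK + 4OHT, 7.38 in OSKA with vehicle and 7.23 in OSKA + 4OHT. So the OSK vehicle array stood apart as scaled here. Scaling to the spike-in controls moved the median of all probes by −0.31 for 4OHT in OSK cells. It moved it by −0.45 for OSKA minus OSK without 4OHT and by −0.0006 for 4OHT in OSKA cells. With such shifts the OSK vehicle array would no longer stand apart or be the lowest. In such bulk samples fewer cells of a type and less RNA per cell cannot be told apart.

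The probes of the TET genes are shown because probes of the same gene did not move alike, so that where each probe lies matters for the values that follow. Positions are in NCBI37 (mm9), as the scanner files give them, and the last 30 of the 60 bases of each probe are printed. Capitals mark AATAAA or ATTAAA, the hexamers of polyadenylation signals. Exons, introns and UTRs under the probes were not analysed here, because no annotation of this build was used. The Tet1 probes, on the minus strand of chromosome 10, lie at chr10:62274448-62274507, chr10:62301856-62301915 and chr10:62276042-62276101, in the order printed.
Tet1 A_55_P2122997: tttacttatagaatagagggtctctaaaaa
Tet1 A_55_P2123002: tgaaagtacaccagaaagccttgttgcaaa
Tet1 A_51_P512172: tcctccgcagaaacatctacctgtacgtac

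The brightest Tet1 probe, A_55_P2122997, was the 3′-most of them and had a stop codon in all 3 forward frames. Probes A_51_P512172 and A_55_P2123002 lay 1594 and 27408 bases 5′ of it, and the former had no stop codon in any frame. The Tet2 probes lie on the minus strand of chromosome 3, at chr3:133126751-133126810, chr3:133126905-133126964 and chr3:133176421-133176479.
Tet2 A_55_P2081303: tacaatctgagggtggttataaatactgta
Tet2 A_55_P2051405: ggtagtttggttaacttgttagggtttttt
Tet2 A_55_P2074075: agttgatcttAATAAAgacctgtttgcttt

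A_55_P2081303 and A_55_P2051405 were 154 bases apart at the 3′ end. A_55_P2074075 was designed on a cDNA clone, lay 49670 bases 5′ of A_55_P2081303 and was the only TET probe to hold one of the hexamers. Of the 21 probes, 4 held a hexamer, against 13.7% of all probes on the array. The Tet3 probes lie on the minus strand of chromosome 6, at chr6:83319720-83319779, chr6:83352743-83352802 and chr6:83318731-83318790.
Tet3 A_55_P2175260: ctttagctcctttaagtacagtggcaatgc
Tet3 A_52_P491273: ctcagtggcttcttggagtcacctctaaag
Tet3 A_51_P199339: agttgtggaatcctgtgaaggtggaggagg

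Tet1, which is highly expressed in pluripotent cells, was highest in AKT-activated cells by all 3 probes, except that A_51_P512172 was highest in OSK with vehicle under spike-in scaling. With the brightest probe, A_55_P2122997, the level was −0.19 in OSK with vehicle, −0.49 in OSK + 4OHT, −0.45 in OSKA with vehicle and 0.34 in OSKA + 4OHT. The OSKA + 4OHT array was set apart above the other 3 arrays, and OSK + 4OHT and OSKA with vehicle differed by less than the software error of a level, 0.146. Under spike-in scaling OSKA + 4OHT lay 0.07 above OSK with vehicle, less than that error. In OSKA cells the 4OHT difference was 0.79 ± 0.205 (software error), or 1.73-fold, and 2.82% of all probes measured lay at or beyond it on the same side. In OSK cells, without AKT-MER, it was −0.30 ± 0.206, and −0.61, past 1.5-fold, under spike-in scaling. This probe was past 1.5-fold in OSKA cells under all 9 settings that read single probes, from 0.66 with the normexp background correction and quantile normalization to 0.80.

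The other Tet1 probes were dimmer and gave smaller 4OHT differences in OSKA cells. Probe A_51_P512172 read −1.92, −2.20, −1.97 and −1.53 in OSK with vehicle, OSK + 4OHT, OSKA with vehicle and OSKA + 4OHT, a 4OHT difference of 0.44 ± 0.212 in OSKA and −0.27 ± 0.220 in OSK cells. Probe A_55_P2123002 read −2.22, −1.94, −1.62 and −1.24 in the same order, a 4OHT difference of 0.38 ± 0.211 in OSKA and 0.28 ± 0.225 in OSK cells. The former thus had the order of the brightest probe for its highest and lowest array, and the latter was ordered by AKT-MER first, with both OSKA arrays above both OSK arrays. The mean over the 3 probes was 0.54 in OSKA cells, under 1.5-fold. Of the 1035 genes with 3 measured probes, 1.84% had all 3 probes at least as high as the lowest Tet1 probe in this comparison.

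Tet2, which is expressed in many somatic lineages including blood cells, was also highest in AKT-activated cells by the 2 probes at its 3′ end, except that A_55_P2051405 was highest in OSK with vehicle under spike-in scaling. The brightest, A_55_P2081303, read 1.59, 1.42, 1.65 and 2.09 in OSK with vehicle, OSK + 4OHT, OSKA with vehicle and OSKA + 4OHT. Its 4OHT difference was 0.44 ± 0.204 (1.36-fold) in OSKA and −0.17 ± 0.204 in OSK cells. The neighbouring probe A_55_P2051405 read −0.24, −0.47, −0.34 and 0.12, with 4OHT differences of 0.46 ± 0.205 (1.37-fold) and −0.23 ± 0.205. Neither reached 1.5-fold in OSKA cells, but on both the OSKA + 4OHT array lay above the other 3 arrays, under spike-in scaling by 0.05 over OSK with vehicle for A_55_P2081303 and no longer for A_55_P2051405.

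The third Tet2 probe went the other way. A_55_P2074075, on the cDNA clone inside the gene, read −2.63, −2.24, −1.80 and −2.43 in the same order. It was highest in OSKA with vehicle, and its 4OHT difference was −0.64 ± 0.218 (1.55-fold lower) in OSKA and 0.39 ± 0.228 in OSK cells. Averaged over the 3 probes, the Tet2 difference in OSKA cells was 0.09, so the Tet2 value depended on which probe was read. The SD among the Tet2 probes was 0.627 in this comparison, against a median of 0.136 over the genes with 3 measured probes. With the normexp background correction the difference of A_55_P2074075 was −0.35, which is no longer past 1.5-fold.

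Tet3, known for oxidizing the paternal genome in the zygote, had no common direction among its probes in either 4OHT comparison. Its brightest probe, A_55_P2175260, read −1.80, −1.77, −1.73 and −1.91 in OSK with vehicle, OSK + 4OHT, OSKA with vehicle and OSKA + 4OHT, and no 2 of these levels differed by more than the software error of a difference, except under spike-in scaling, where OSKA + 4OHT minus OSK with vehicle was −0.56. Probe A_52_P491273 read −2.43, −2.99, −2.81 and −3.14, with 4OHT differences of −0.33 ± 0.256 in OSKA and −0.57 ± 0.255 in OSK cells. Probe A_51_P199339 read −3.08, −2.89, −3.73 and −3.05, and only its OSKA vehicle level stood apart, below the others. Its 4OHT difference in OSKA cells, 0.68 ± 0.304 (1.60-fold), went with an AKT-MER difference of −0.65 ± 0.306 without 4OHT. It came to 0.19 with the normexp correction, under 1.5-fold.

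**Figure D1:**
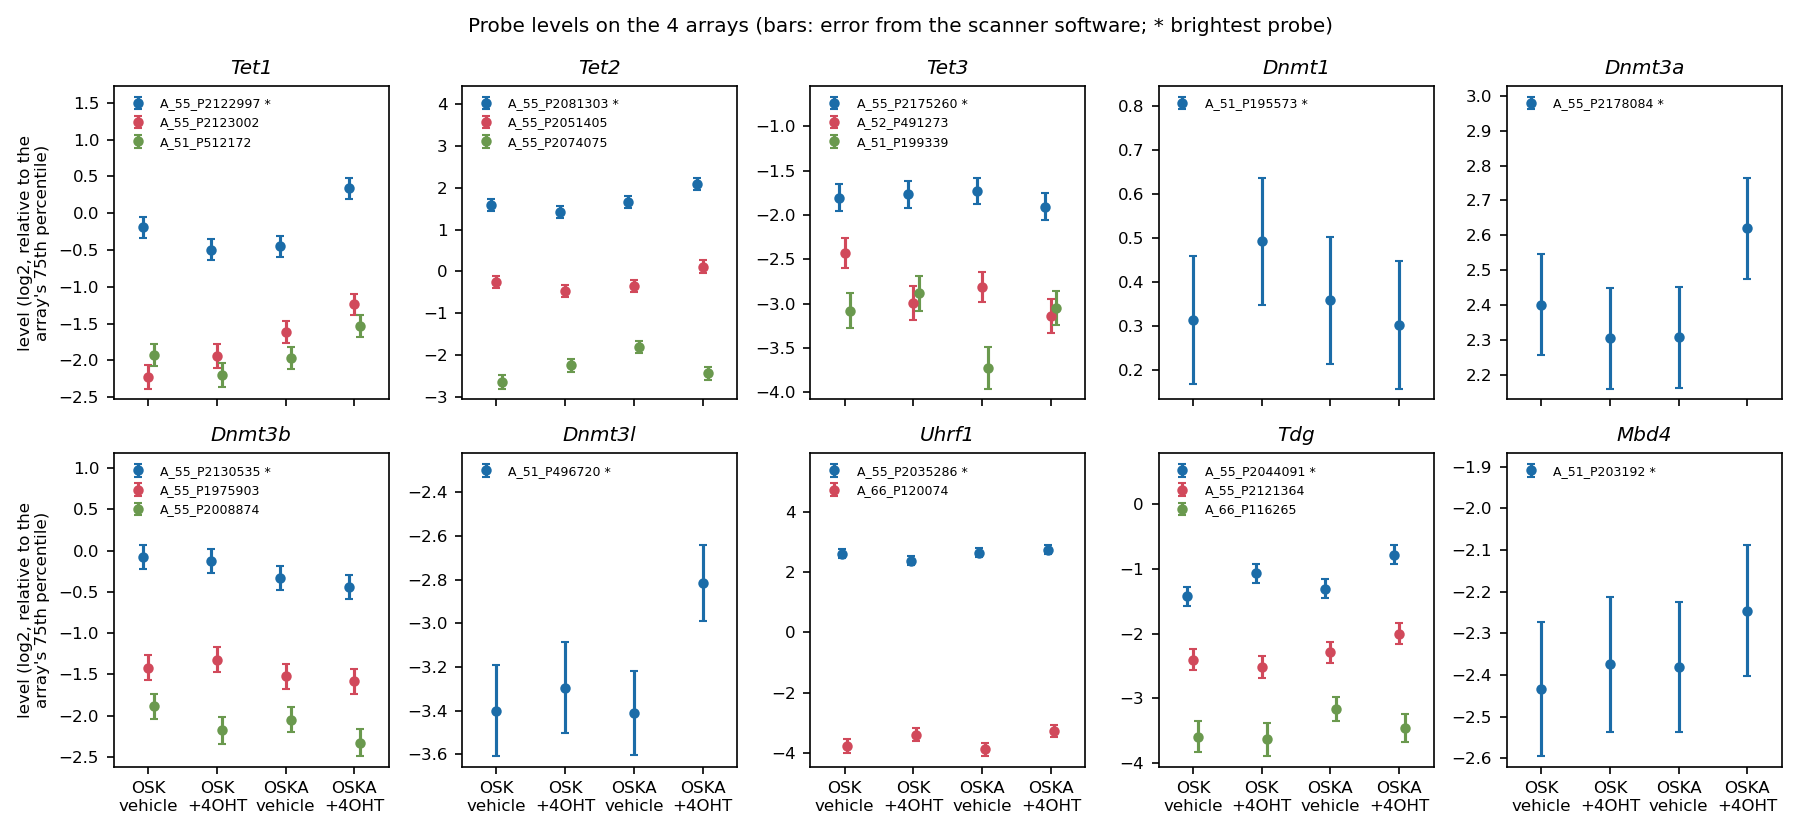
Levels of the 21 probes on the 4 arrays, 1 panel per gene with its own axis. Each point is a level on the log2 scale (75th percentile of its array set to 0), bars are the error from the scanner software, and an asterisk marks the brightest probe of the gene. The brightest Tet1 probe reads 0.34 in OSKA + 4OHT and −0.19 or lower on the other arrays, whereas Tet2 A_55_P2074075 is highest in OSKA with vehicle, at −1.80.

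The maintenance methyltransferase gene Dnmt1 was level over the 4 arrays, except that under spike-in scaling OSKA + 4OHT minus OSK with vehicle was −0.47. Its single probe, A_51_P195573 (chr9:20711973-20712341), spans 369 bases of the genome and so crosses an intron. It read 0.31 in OSK with vehicle, 0.49 in OSK + 4OHT, 0.36 in OSKA with vehicle and 0.30 in OSKA + 4OHT. The 4OHT difference was −0.06 ± 0.204 in OSKA and 0.18 ± 0.204 in OSK cells, both smaller than their error.

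The de novo methyltransferase genes differed from each other. Dnmt3a A_55_P2178084 (chr12:3914320-3914379) read 2.40, 2.31, 2.31 and 2.62 in OSK with vehicle, OSK + 4OHT, OSKA with vehicle and OSKA + 4OHT. It was highest in AKT-activated cells, or in OSK with vehicle under spike-in scaling, with a 4OHT difference of 0.31 ± 0.204 in OSKA and −0.10 ± 0.204 in OSK cells. The Dnmt3b probes, at chr2:153513403-153513462, chr2:153512098-153512157 and chr2:153512991-153513050, had 4OHT differences in OSKA cells of −0.11 ± 0.205, −0.06 ± 0.212 and −0.28 ± 0.224. All 3 were lowest in AKT-activated cells under every scaling tried, the brightest reading −0.08, −0.13, −0.33 and −0.44. None of the Dnmt3a or Dnmt3b differences reached 1.5-fold in the 4 comparisons of arrays, except under spike-in scaling, where Dnmt3b A_55_P2008874 was at −0.59 for 4OHT in OSK cells and at −0.61 for AKT-MER without 4OHT, and the brightest Dnmt3b probe at −0.71 for the latter. Under that scaling the 4OHT difference of Dnmt3a in OSKA minus that in OSK cells was 0.71.

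Dnmt3l, whose product stimulates the de novo enzymes in germ cells, was close to the bottom of the measured range. Probe A_51_P496720 (chr10:77526112-77526171) read −3.40, −3.29, −3.41 and −2.82, so that AKT-activated cells stood above 3 nearly equal arrays, whereas under spike-in scaling the 3 were spread, with OSKA minus OSK without 4OHT at −0.46, and OSKA + 4OHT lay 0.13 above OSK with vehicle, less than the software error of a level. The 4OHT difference in OSKA cells was 0.59 ± 0.259 (1.51-fold), just past the threshold, and 0.28 with the normexp correction. In OSK cells it was 0.11 ± 0.294.

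Uhrf1 gave 2 unlike readings. The bright 3′ probe A_55_P2035286 (chr17:56462770-56462829) read 2.61, 2.38, 2.64 and 2.75, a 4OHT difference of 0.11 ± 0.204 in OSKA and −0.23 ± 0.204 in OSK cells. Under spike-in scaling this probe was highest in OSK with vehicle, and the other in OSK + 4OHT. Probe A_66_P120074 (chr17:56451668-56452321) spans 654 bases, across an intron, and read −3.76, −3.39, −3.89 and −3.28. On this dim probe both 4OHT arrays were above both vehicle arrays, by 0.61 ± 0.290 (1.52-fold) in OSKA and 0.37 ± 0.310 in OSK cells. With the normexp correction the former was 0.24, under 1.5-fold.

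Of the glycosylases, Tdg was highest in AKT-activated cells by 2 of its 3 probes, one of which, A_55_P2121364, was highest in OSK with vehicle under spike-in scaling. The brightest, A_55_P2044091 (chr10:82110701-82110760), read −1.43, −1.07, −1.30 and −0.78, with both 4OHT arrays above both vehicle arrays. Its 4OHT difference was 0.52 ± 0.208 (1.44-fold) in OSKA and 0.35 ± 0.211 in OSK cells. Probe A_55_P2121364 (chr10:82112994-82113053) gave 0.29 ± 0.220 and −0.11 ± 0.237, and shares a stretch of 20 bases with a probe of the locus LOC101056559, which gave 0.33 and −0.13.

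The dimmest Tdg probe, A_66_P116265 (chr10:82113115-82113174), gave −0.30 ± 0.289 in OSKA cells, opposite to the other two. The mean over the 3 probes was 0.17, against 0.52 for the brightest alone. Mbd4 A_51_P203192 (chr6:115792515-115792574) read −2.43, −2.37, −2.38 and −2.25, with a 4OHT difference of 0.14 ± 0.221 in OSKA and 0.06 ± 0.229 in OSK cells. No 2 of the Mbd4 levels differed by more than the software error of a difference, except under spike-in scaling, where OSKA minus OSK without 4OHT was −0.40.

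Counted over all members, 4 of the 21 probes were at least 1.5-fold higher with 4OHT in OSKA cells, against 4.84% of all probes measured, and 1 was lower, against 5.02%. The 4 were Tet1 A_55_P2122997, Tet3 A_51_P199339, Dnmt3l A_51_P496720 and Uhrf1 A_66_P120074, and the 1 lower was Tet2 A_55_P2074075. With the normexp correction 1 was higher, Tet1 A_55_P2122997, against 2.28% of all probes, and none lower, against 1.24%. At 2-fold there was none in either direction, against 1.78% and 0.879% of all probes. The median difference of the 21 probes was 0.29, against −0.04 for all probes, with 13 above and 8 below 0. Dim probes scattered more. Probes measured on all arrays were split by brightness into 3 classes of 8967, and 16.9% of the dimmest, 7.85% of the middle and 3.14% of the brightest class differed by at least 1.5-fold in this comparison. Of the member probes 12 fell in the dimmest class, 6 in the middle and 3 in the brightest, and of the 5 counted Tet1 A_55_P2122997 alone was outside the dimmest class.

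In OSK cells, which received the same 4OHT without AKT-MER, none of the 21 probes was at least 1.5-fold higher or lower, against 4.72% and 2.08% of all probes, and none at 2-fold, against 0.656% and 0.324%. The member median was −0.04, against −0.01 for all probes. The probe nearest to the threshold was Tet3 A_52_P491273 at −0.57, which passed it with quantile normalization, against 2.25% of all probes. Under spike-in scaling 3 probes passed it, against 12.4% of all probes, this one at −0.87, Tet1 A_55_P2122997 at −0.61 and Dnmt3b A_55_P2008874 at −0.59. In this comparison the median difference of the macrophage and leukocyte markers was 0.60, against −0.17 in OSKA cells, and the part of these cells in the members' values was not tested.

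**Figure D2:**
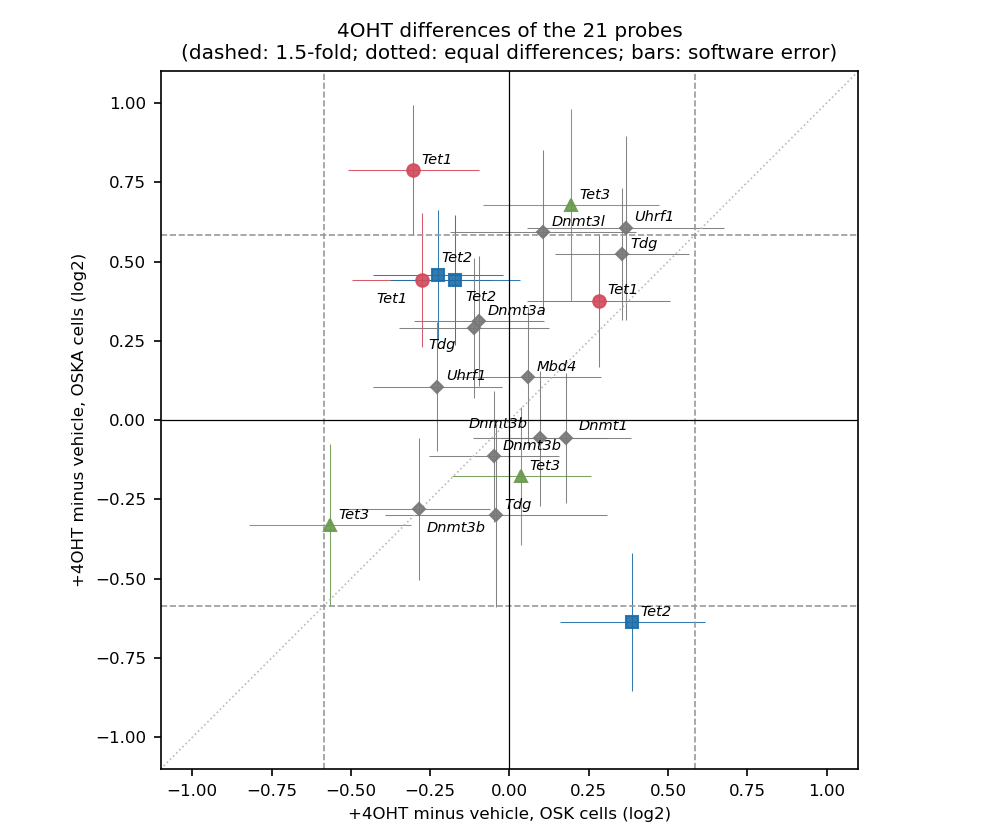
The 4OHT difference in OSKA cells (vertical, log2) against that in OSK cells (horizontal, log2) for the 21 probes, with software errors as bars, 1.5-fold as dashed lines and equal differences as a dotted line. The Tet1 probe at the top left has differences of 0.79 and −0.30, and the Tet2 probe at the lower right has −0.64 and 0.39.

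**Figure D3:**
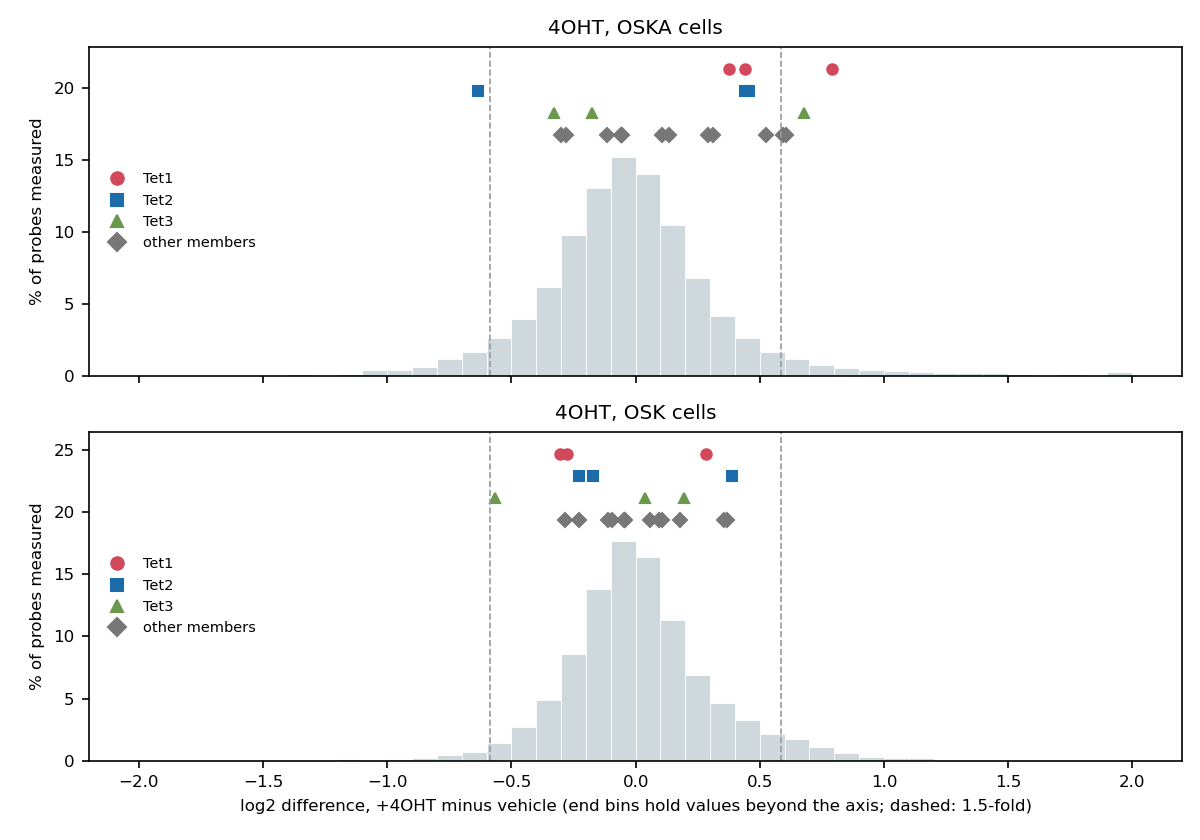
Distribution of the 4OHT differences of all probes measured (bars, percent per bin of 0.1 on the log2 scale) in OSKA and OSK cells, with the member probes drawn above it and 1.5-fold as dashed lines. In OSKA cells 4 member probes lie to the right of the upper line and 1 to the left of the lower line, and in OSK cells none lies outside the lines.

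At constant 4OHT, OSKA cells were compared with OSK cells to see what AKT-MER added in the presence of its ligand. This comparison shares an array with each 4OHT comparison and is no independent measurement of them. Here 5 of the 21 probes were at least 1.5-fold higher, against 5.24% of all probes, and none was lower, against 5.29%. None passed 2-fold, against 1.73% and 1.09%. The 5 were the 3 Tet1 probes, at 0.83 ± 0.206 (1.78-fold), 0.70 ± 0.216 (1.62-fold) and 0.67 ± 0.218 (1.59-fold), and the Tet2 probes A_55_P2081303, at 0.67 ± 0.204 (1.60-fold), and A_55_P2051405, at 0.59 ± 0.205 (1.51-fold). Only 1.26% of the 1035 genes with 3 measured probes had all of them at least 1.5-fold higher. With the normexp correction 2 of the 5 probes were past 1.5-fold, against 2.46% of all probes, the brightest of Tet1 at 0.70 and of Tet2 at 0.66, whereas Tet1 A_51_P512172 was at 0.45, Tet1 A_55_P2123002 at 0.44 and Tet2 A_55_P2051405 at 0.50.

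The other members stayed under 1.5-fold at constant 4OHT. The 3 Tet3 probes lay between −0.16 and −0.14, the 3 Dnmt3b probes between −0.32 and −0.15, and Dnmt1 was at −0.19. Dnmt3a was at 0.31, the brighter Uhrf1 probe at 0.36, Dnmt3l at 0.48 and Tdg A_55_P2121364 at 0.52. So all measured probes of Tet3, Dnmt1 and Dnmt3b were lower in OSKA + 4OHT than in OSK + 4OHT, and those of Tet1, Dnmt3a, Dnmt3l, Uhrf1, Tdg and Mbd4 were higher, except that under spike-in scaling Mbd4 was at −0.02 and Uhrf1 A_66_P120074 at −0.03, and with normexp the latter was at −0.02. Scaled to the spike-in controls, which moved the median of all probes by −0.15 here, 1 of the 5 probes was past 1.5-fold, against 3.40% of all probes, Tet1 A_55_P2122997 at 0.68. The median difference of the leukocyte markers was −0.19 and that of the pluripotency markers −0.37. That of the fibroblast markers was 0.29, with Postn at 0.86, Col3a1 at 0.82, Vim at −0.40 and Pdgfrb at −0.62, against a median of 0.08 and 0.00 for 4OHT in OSKA and OSK cells. The epithelial markers had a median of 0.00. Krt18 was at 1.06, Dsp at 0.88, Cldn4 at 0.28, Krt8 at −0.28, Epcam at −0.40 and Cdh1 at −0.60. The part of such cells here was not tested.

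Without ligand, the OSKA array read at least 1.5-fold above the OSK array for 2 of the 21 probes, against 6.13% of all probes, and below it for 1, against 4.1%. These were Tet2 A_55_P2074075 at 0.83 ± 0.222 (1.78-fold higher), Tet1 A_55_P2123002 at 0.60 ± 0.220 (1.52-fold higher) and Tet3 A_51_P199339 at −0.65 ± 0.306 (1.57-fold lower). All 3 were dim, and with the normexp correction none stayed past 1.5-fold, at 0.54, 0.39 and −0.15, against 2.23% of all probes higher and 1.39% lower. Under spike-in scaling no probe was higher, against 1.0% of all probes, and 5 were lower, against 31.3%, among them Tet3 A_51_P199339 at −1.10 and the brightest Tet1 probe at −0.72. Of the 21 none passed 2-fold with the 75th percentile scaling, against 1.15% and 0.903% of all probes. The brightest probes of the 10 genes lay between −0.26 for Tet1 and 0.12 for Tdg. The leukocyte markers had a median difference of 0.59 and the epithelial markers of −1.05 in this comparison, and their part in the members' values was not tested.

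The 4OHT differences of OSKA and OSK cells were then set against each other. The difference between them was at least 1.5-fold higher for 4 of the 21 probes, against 7.16% of all probes, and lower for 1, against 11.1%. It was 1.09 ± 0.291 for Tet1 A_55_P2122997, 0.72 ± 0.306 for Tet1 A_51_P512172, 0.68 ± 0.290 for Tet2 A_55_P2051405 and 0.61 ± 0.289 for Tet2 A_55_P2081303. For Tet2 A_55_P2074075 it was −1.02 ± 0.316, and for Tet1 A_55_P2123002 it was 0.10 ± 0.308. At 2-fold 1 probe was higher and 1 lower, against 2.51% and 2.9% of all probes. With the normexp correction 2 probes were higher, against 3.55% of all probes, and under spike-in scaling 9, against 18.9%. Tet2 A_55_P2074075 stayed the 1 lower with both, against 4.93% and 4.24%. These values rest on 4 single arrays and were not tested.

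**Figure D4:**
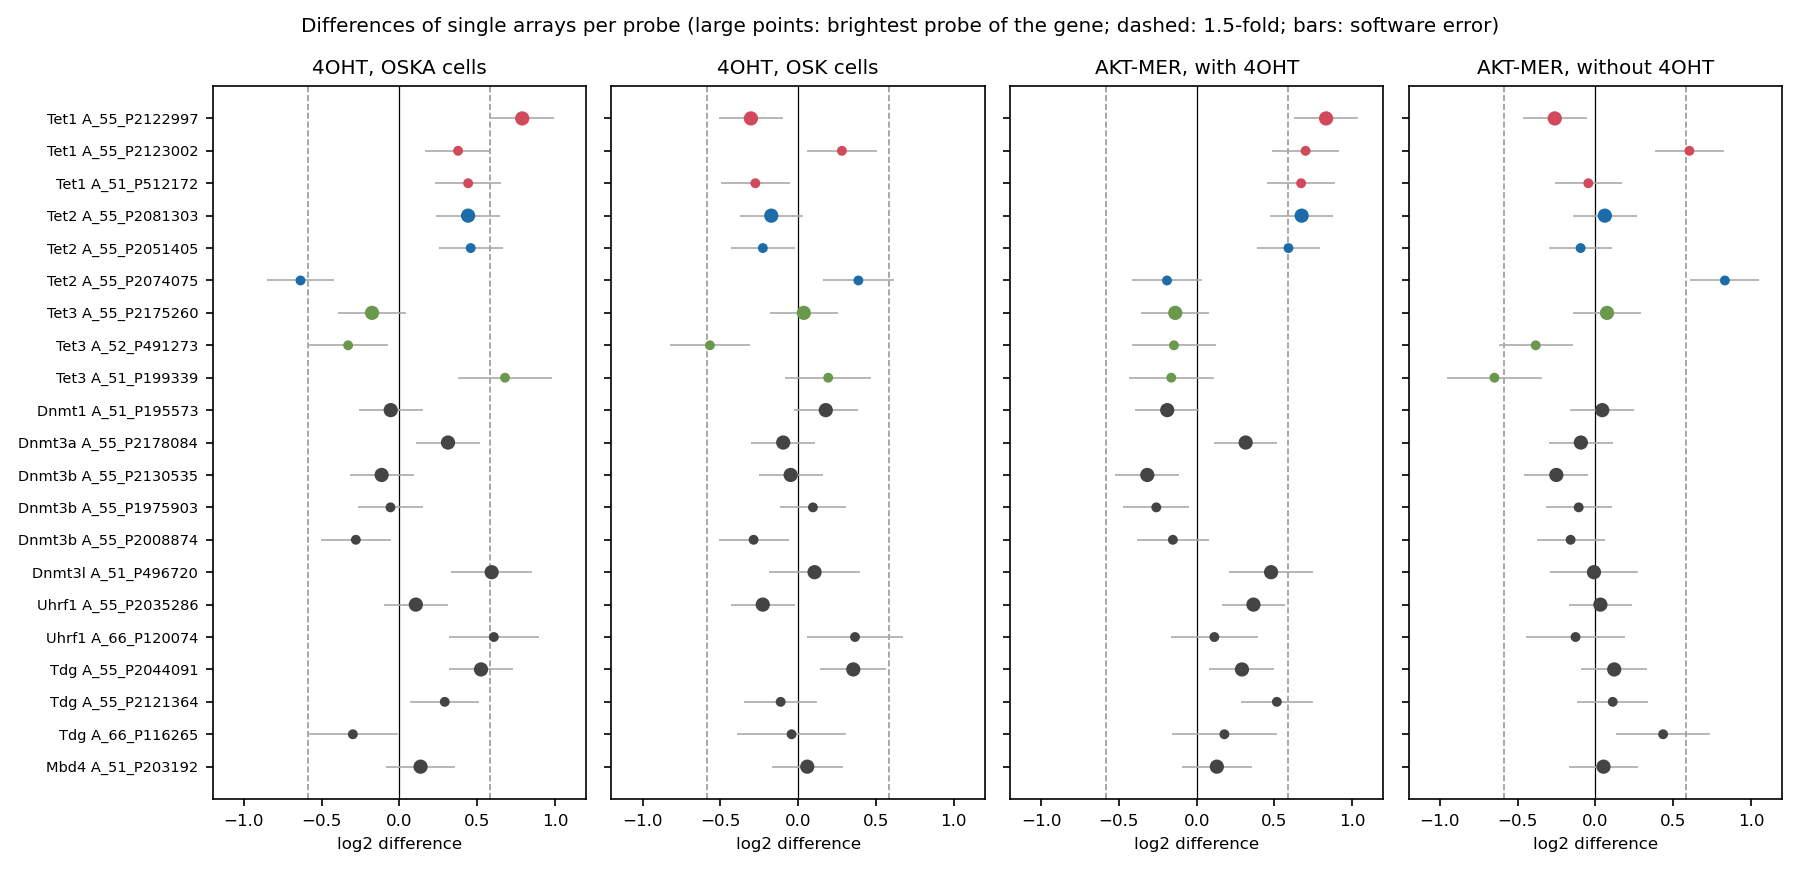
Differences of single arrays for each of the 21 probes (log2, rows) in the 4 comparisons (panels), with software errors as bars and 1.5-fold as dashed lines. Large points are the brightest probe of each gene, and Tet1, Tet2 and Tet3 are drawn in red, blue and green. All 3 Tet1 probes lie at 0.67 or above for AKT-MER with 4OHT, whereas without 4OHT they range from −0.26 to 0.60.

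Over the 4 arrays, 12 of the 21 member probes had their highest level in OSKA + 4OHT and 3 in each of the other groups, whereas under spike-in scaling 5 were highest in OSKA + 4OHT, against 7.60% of all probes, and 14 in OSK with vehicle, against 78.6%. Of these 5, Tet1 A_55_P2123002 then lay 0.53 above OSK with vehicle and the others 0.05 to 0.19. With the 75th percentile scaling, 26.6% of all 26901 probes measured on every array were highest in OSKA + 4OHT and 31.8% in OSK with vehicle. The lowest level of a member was in OSK + 4OHT for 8 probes, against 16.9% of all probes, and in OSKA + 4OHT for 6, against 37.3%, including all 3 of Dnmt3b and 2 of Tet3. Under spike-in scaling 6 members were lowest in OSK + 4OHT, 8 in OSKA with vehicle and 7 in OSKA + 4OHT, against 9.35%, 35.3% and 51.2% of all probes.

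Among 14267 genes measured on all arrays, the pattern nearest to that of the brightest Tet1 probe was that of Lbp, which encodes lipopolysaccharide binding protein, at a Euclidean distance of 0.060 over the 4 mean-centred levels. Gbe1, the glycogen branching enzyme, followed at 0.083, then Scube3 and Olfr1350 at 0.095 and Fam122b at 0.105. Nearest to the brightest Tet2 probe were Yars, a tyrosyl-tRNA synthetase gene, at 0.036, the zinc finger repressor gene Zbtb18 at 0.044, Mfsd8 at 0.047, Arsj at 0.049 and the topoisomerase gene Top1 at 0.064. With 4 arrays such nearness is a description.

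The partners of these enzymes were examined as lists, with each gene read by its brightest probe. With 4OHT in OSKA cells, 5.06% of all genes were past 1.5-fold upward and 4.64% downward, with a median of −0.03. The base excision repair genes, which act after TDG and MBD4, had 21 of 22 members measured, none past 1.5-fold, and a median of 0.03. The uracil glycosylase gene Ung was at 0.53 and the stress gene Gadd45b at −0.49, the ends of the range. The readers of methylated CpG had a median of −0.15, with 8 of 10 below 0 and none past 1.5-fold. Mbd2 was at −0.22.

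The partners and regulators of TET had a median of −0.09 over 17 measured of 19 genes, none past 1.5-fold. Ogt, whose product binds TET2 and TET3, was at −0.24. Of the partners of DNMT and heterochromatin genes, 19 of 23 were above 0, with a median of 0.13 and 1 past 1.5-fold. That one was the histone methyltransferase gene Ehmt1, at 0.66 (1.58-fold), whose other probe was at 0.05. The deacetylase gene Hdac1 was at 0.46, Cdca7, a cofactor of the remodeller HELLS, at 0.39, and Hells itself at 0.22. The DNA replication genes had 15 of 22 above 0, a median of 0.11 and none past 1.5-fold, with Rrm2, the small subunit of ribonucleotide reductase, at 0.52.

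Germline genes that promoter methylation is known to silence in somatic cells were mostly below detection. Of the 21 on the list 4 were measured on both OSKA arrays, Taf7l, Ddx4, Brdt and Rhox5, and all 4 were below 0 with 4OHT, with a median of −0.32 and 1 past 1.5-fold. That one was the RNA helicase gene Ddx4, at −0.74, which was at −0.50 for 4OHT in OSK cells and at 0.01 between the 4OHT arrays. Rhox5 was at −0.32 in OSKA and −0.57 in OSK cells. In OSK cells the lists had medians between −0.19 and −0.02, and the genes at least 1.5-fold higher were Neil2 at 0.70, Wt1 at 1.10 and Suv39h1 at 0.60, against 4.35% of all genes. None of the lists' genes was lower by that much as scaled here, against 1.64% of all genes. Scaling to the spike-in controls moved the median of all probes by −0.31 for 4OHT in OSK cells. With such a shift Rhox5 at −0.57 and Ddx4 at −0.50, among others, would be past 1.5-fold lower. Neil2 and Suv39h1 would then fall under 1.5-fold, and Wt1 would stay past it. At constant 4OHT, the list genes past 1.5-fold between OSKA and OSK cells were Hells at 0.61, against 5.46% of all genes, and Gadd45b at −0.75, against 5.1%. Without ligand it was Wt1 at 1.79, against 5.67%, and none was lower, against 3.98%. Spike-in scaling moved the median of all probes by −0.15 at constant 4OHT, and with such a shift Hells would fall under 1.5-fold. Without ligand it moved the median by −0.45, with which Dppa3 at −0.54 and Cdca7 at −0.49, among others, would be past 1.5-fold lower. In the latter comparison 21 of the 22 replication genes were below 0, with a median of −0.10 against −0.02 for all genes. Apart from Ehmt1 and Ddx4, the genes named from the lists were picked after their values were seen.

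**Figure D5:**
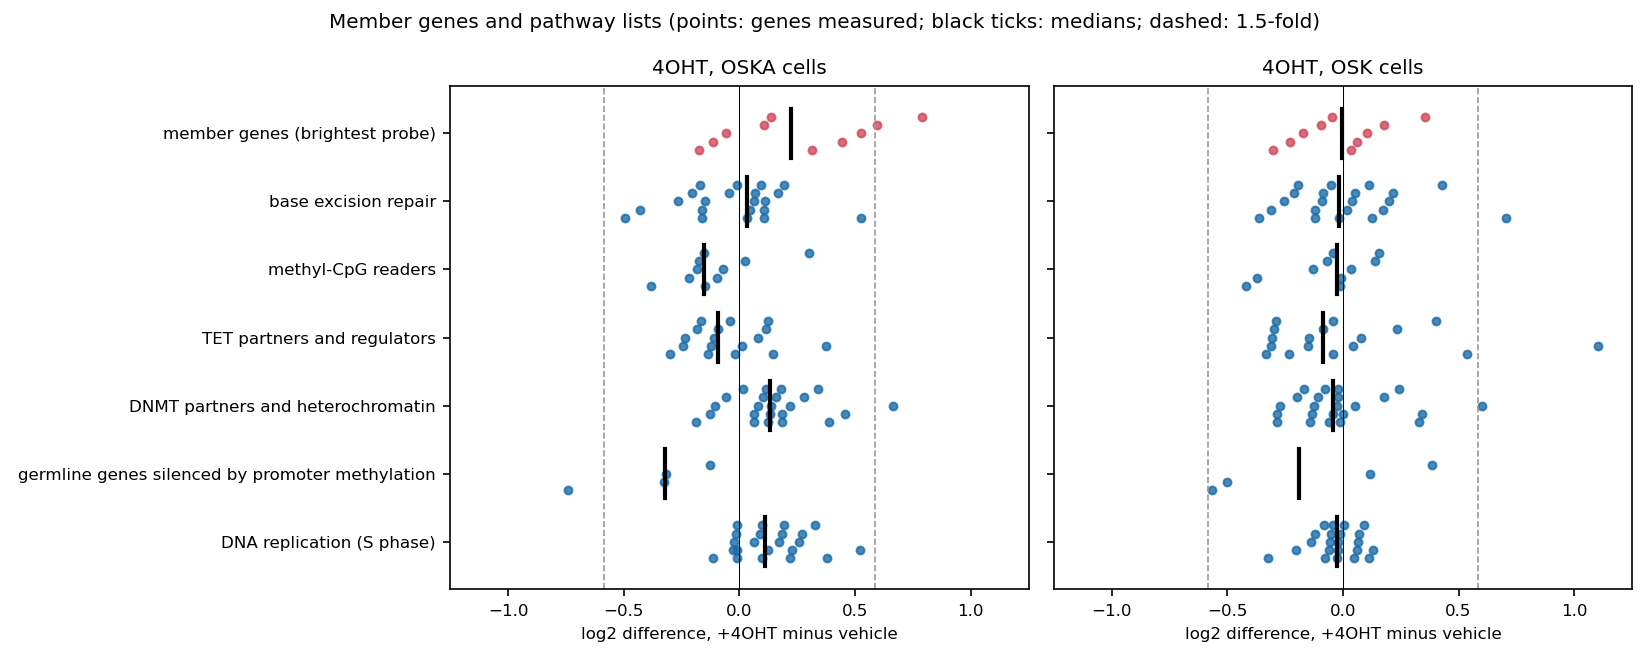
The 4OHT differences (log2) of the 10 member genes by their brightest probe (red) and of the genes of 6 lists (blue) in OSKA and OSK cells, with medians as black ticks and 1.5-fold as dashed lines. The member median is 0.22 in OSKA and −0.01 in OSK cells, and the list medians in OSKA cells run from −0.32 for the germline genes to 0.13 for the partners of DNMT.

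The promoters of the members were read from RefSeq (GRCm38.p6, 250 bases before to 50 after each start) because FOXO factors are held in check by AKT and E2F factors drive genes of the S phase. All 10 genes had an entry, with 17 windows in all. GTAAACA, the FOXO motif, on either strand, was in none of the 17, against 3.65% of 32851 windows. TTTCGCGC or TTTGGCGC, forms of the E2F motif, on either strand, was in 2 of the 17, against 0.813% of all windows. The sites before the start of Dnmt1 (chr9:20952824-20952853, minus strand) and of Uhrf1 (chr17:56304117-56304146, plus strand) are printed with the motif in capitals, the first reading on the opposite strand of the gene.
Dnmt1 promoter: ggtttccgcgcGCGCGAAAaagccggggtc
Uhrf1 promoter: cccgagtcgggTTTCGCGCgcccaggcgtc

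They lie 219 and 185 bases before the start, and the Dnmt1 window held a further match after it. Of the members that hold this motif, the Dnmt1 probe had a 4OHT difference in OSKA cells of −0.06. The brighter Uhrf1 probe had one of 0.11 and the dim Uhrf1 probe one of 0.61. CpG dinucleotides are the substrate of these enzymes, and the Tet2 window held 57 of them, more than 99.9% of all windows, against a median of 7. The Dnmt3a windows with the most held 46 and 47, and the Tet1 window held 17.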

How the data were processed

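Total RNA (100 ng, per the labels) was copied into cRNA with Cy3 and hybridised to 4 Agilent arrays on 1 slide, on which position and group cannot be told apart. The deposited scanner files hold background-corrected intensity values on a linear scale from Agilent Feature Extraction 10.7.3.1, not normalized between arrays. The authors' series matrix repeats those intensities in rounded form, at a ratio of 0.995 to 1.005 to the scanner value.

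From each log2 intensity the 75th percentile of the array was subtracted, taken over non-control spots that were not marked as uneven or outlying (104 to 155 marked). Of the spots on each array, 52.4% to 55.4% were well above background, and none was saturated. Probes kept the gene names of the files. Through their accession, 49.4% of all probes could be named in RefSeq, and all 21 member probes got the same name. Every probe of a member was read apart, and the brightest probe by mean level stood for a gene. From the lists, genes past 1.5-fold in the 4OHT comparison of OSKA cells were named, and the 5 genes nearest to Tet1 and Tet2 by Euclidean distance.

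With 1 array per group no test was run, and precision is limited by their number. The code for the differences was run on simulated arrays with planted changes and the same small noise on every probe. This run did not measure the error of the real arrays. Alternatives were the filter, normexp correction (offset 50, limma 3.58.1, R 4.3.3), quantile normalization, both together, spike-in scaling, another set for the percentile, the series matrix, the mean over probes and a 2-fold threshold. The members and lists were chosen with earlier results of these data known. Python 3.11.15, numpy 2.4.6, pandas 2.3.3 and matplotlib 3.10.9 were used.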

Additional observations from a re-analysis of the deposited data

Results flagged for a closer look

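For 5 probes the 4OHT difference had opposite signs in OSKA and OSK cells, with a difference between the 2 of at least 1.5-fold. Of all probes measured on every array, 18.3% had a difference between the 2 of at least 1.5-fold in either direction. The share of these with opposite signs was not computed. The value in OSKA minus that in OSK cells was 1.09 for Tet1 A_55_P2122997, 0.72 for Tet1 A_51_P512172, 0.61 for Tet2 A_55_P2081303 and 0.68 for Tet2 A_55_P2051405. For Tet2 A_55_P2074075 it was −1.02, with the signs the other way round. With 1 array per group none of these differences was tested. With the normexp correction Tet1 A_51_P512172 and Tet2 A_55_P2051405 fell under 1.5-fold, at their lowest values over 9 settings, 0.44 and 0.57, whereas Tet1 A_55_P2122997 stayed at 0.91 or above.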

How the results depend on the processing

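No paired analysis was possible because each group had 1 array. Counts of member probes past 1.5-fold depended on the processing. At 2-fold the 4OHT comparison in OSKA cells had 0 probes higher and 0 lower, AKT-MER with 4OHT had 0 higher, AKT-MER without 4OHT had 0 higher and 0 lower, and the difference of the 4OHT effects had 1 higher. The shares of all probes were, in this order, 1.78% and 0.879%, 1.73%, 1.15% and 0.903%, and 2.51%. With normexp, alone or with quantile normalization, the same counts were 1 and 0, 2, 0 and 0, and 2, against 2.28% and 1.24%, 2.46%, 2.23% and 1.39%, and 3.55% of all probes with normexp alone and 2.30% and 1.27%, 2.66%, 2.03% and 1.40%, and 3.88% with both. Quantile normalization alone left 1 higher (5.6% of all probes) for AKT-MER without 4OHT and gave 1 lower (2.25%) for 4OHT in OSK cells. Spike-in scaling moved the median of all probes by −0.31 for 4OHT in OSK cells, −0.45 for AKT-MER without 4OHT, −0.15 with 4OHT and 0.31 for the difference of the 4OHT effects. It gave 3 lower for 4OHT in OSK cells (12.4% of all probes), 0 higher (1.0%) and 5 lower (31.3%) for AKT-MER without 4OHT, 1 higher (3.40%) with 4OHT and 9 higher (18.9%) for the difference of the effects. The cause was not tested. Of 105 differences (21 probes in 5 comparisons), 97 kept their sign with normexp, 103 with normexp and quantile normalization, 83 with spike-in scaling and 104 with the percentile over probes measured on all arrays, and all 105 did under both filters, quantile normalization and the series matrix. The mean over probes kept the sign of 43 of 50. No difference past 1.5-fold changed sign in these alternatives. Dim probes, 12 of the 21, had the larger error and most of the counts that were lost.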
